A study of Bos taurus with 44 samples.

Results

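The 7 genes followed here belong to the interleukin 12 and interferon gamma axis: IL12A, IL12B, IL12RB1, IL12RB2, IFNG, IFNGR1 and IRF1. They were taken as the spots that the platform annotation gives to that single symbol, which left 7 of the 141 named genes and 56 of 1208 named spots, with 8 spots for each gene. The rule reads only the annotation, but the genes were proposed with earlier results of these data known. The study asked how blood mononuclear cells differ in gene expression between Holstein cows with a high and with a low immune response, 6 days after immunization with antigens that promote antibody and cell-mediated responses. Blood was taken from female cows, mononuclear cells were isolated on a Percoll gradient, and their RNA was amplified and hybridised to two-colour arrays beside an RNA standard of the same kind of cells. The 44 arrays came from 11 cows in 5 label groups, and all of these cows had been immunized, with no sample taken from an animal that had not.

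The label groups are as follows. A single cow was high for both antibody (Ab) and cell-mediated (DTH) response and is called the shared cow. The high-Ab and high-DTH labels each cover 2 more cows, and the low-Ab and low-DTH labels 3 cows each. The Ab comparison set 3 high cows, the shared cow among them, against 3 low cows, and the DTH comparison did the same with the shared cow again among the high cows. Both comparisons therefore share 1 cow, and cows with the same number in different label groups were taken as different animals. No label used here gives the age of the cows, their herd or the makeup of the standard. The cells were not sorted further, so fewer cells of a type and less RNA per cell cannot be told apart in any value below.

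Interleukin 12 is a dimer of the IL12A (p35) and IL12B (p40) chains, made mainly by monocytes, macrophages and dendritic cells. It binds a receptor of the IL12RB1 and IL12RB2 chains on T cells and natural killer cells and drives them towards interferon gamma, the product of IFNG. Interferon gamma acts through a receptor whose ligand-binding chain is IFNGR1, and IRF1 is a transcription factor induced by it that raises genes of antigen processing. The axis is classically tied to cell-mediated rather than antibody responses.

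Each value is a log2 ratio as deposited, read as cow over standard, so 0 means that a cow equals the standard and 1 means a doubling. The direction is likely, but no label states it. The ratio gives no level, so markers of the labelled cell type could not be checked for presence and the members cannot be ordered by abundance. In 3 arrays the sign itself is unsettled: the first pair from low-Ab cow 1 (arrays 1 and 2) and the last from low-DTH cow 3 (array 3). Against the other cows' arrays they had a mean correlation of −0.23 to −0.20, whereas the remaining 41 arrays all had 0.05 or more. The lowest of these 41 were arrays 3 and 4 of low-DTH cow 2, both at 0.05, and array 3 of high-DTH cow 3, at 0.08. Arrays 2 and 3 of high-DTH cow 3 correlated with each other at −0.24. The sign of these arrays was left as deposited. Results are given as deposited and, where it matters, with the 3 arrays of unsettled sign turned. No spot intensities were used, so the signal over background of the members is unknown, and the number of cows limits the precision.

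None of the 7 genes passed the test between high and low cows of either trait. In the Ab comparison 6 of 7 members were higher in high cows and 1 was lower, with a median difference of 0.06, while 64 of the 141 named genes were higher with a median of −0.0089. In the DTH comparison 3 members were higher and 4 lower, and all 7 differences lay between −0.06 and 0.02. Their median absolute difference there was 0.01, against 0.09 over all named genes. Limma called 0 of 562 features in the Ab comparison (0%) and 0 of 565 in the DTH comparison (0%), with 37 and 55 features at an unadjusted p under 0.05. Fitted on single arrays with the cow as a random block, limma called 16 and 2 features, and the adjusted p of IL12RB2 was 0.383 in the Ab comparison.

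**Figure D1:**
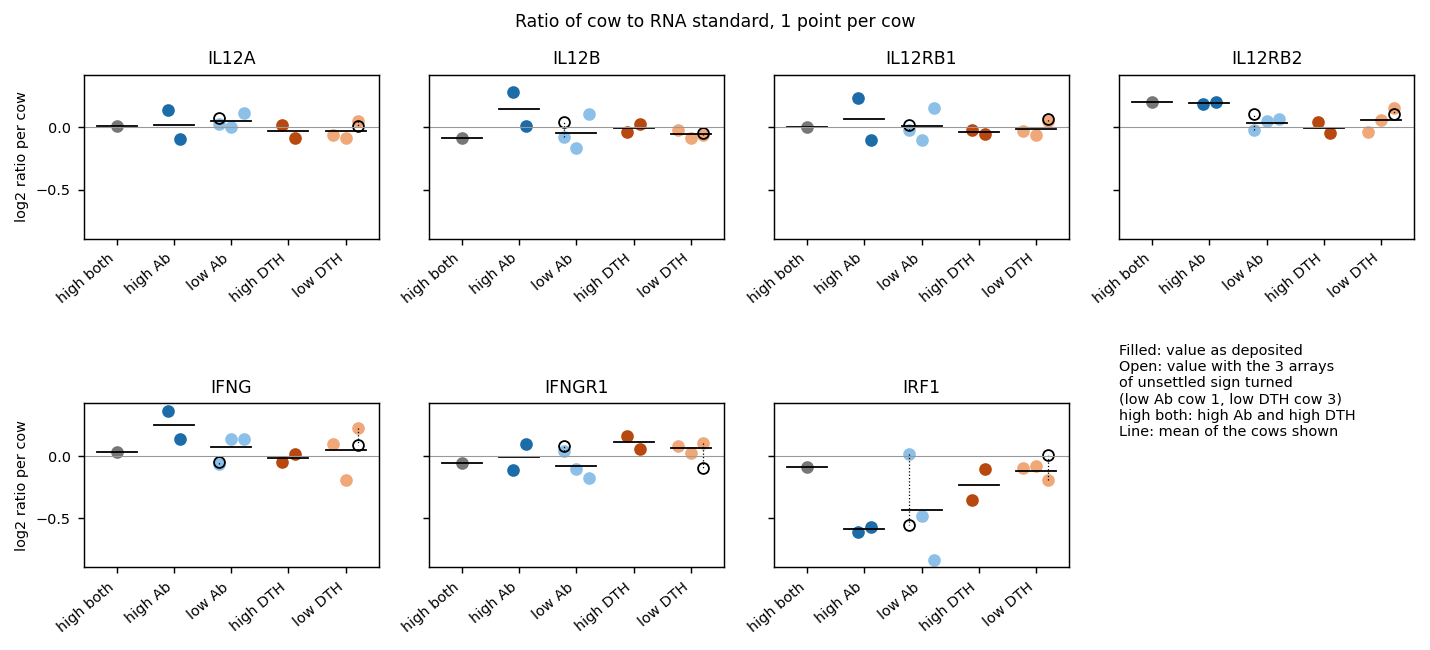
Log2 ratio of each member in each of the 11 cows (vertical axis), by label group (horizontal axis). Filled points are values as deposited, open points the values of low-Ab cow 1 and low-DTH cow 3 with the 3 arrays turned, and lines are means. The 3 high-Ab cows, counting the shared cow, sit at 0.18 to 0.21 for IL12RB2, and IRF1 has the widest spread, from −0.83 to 0.02.

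The ligand chains lay close to the standard. IL12A was 0.0079 in the shared cow, 0.14 and −0.09 in high-Ab cows 2 and 3, and 0.03, 0.0049 and 0.11 in the 3 low-Ab cows. High and low cows overlapped, and the difference was −0.03 ± 0.10 (limma estimate ± SE, 3 against 3 cows), with a 95% confidence interval from −0.27 to 0.21. In high-DTH cows 2 and 3 IL12A was 0.02 and −0.08, and in the low-DTH cows −0.06, −0.09 and 0.05. These groups overlapped too, with a difference of 0.01 ± 0.09 and an interval from −0.20 to 0.22.

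IL12B varied more between cows than IL12A, with an SD of 0.12 against 0.08 over the 11 cows. Its value was −0.08 in the shared cow, 0.28 and 0.01 in high-Ab cows 2 and 3, and −0.08, −0.17 and 0.11 in the low-Ab cows. High-Ab cow 2 stood above all other cows, and the difference was 0.12 ± 0.13 with an interval from −0.21 to 0.44. The value without that cow was 0.01. Among the DTH cows IL12B lay between −0.08 and 0.02, with a difference of 0.02 ± 0.08. The p40 chain is also a chain of interleukin 23, so its ratio does not belong to interleukin 12 alone.

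IL12RB1, which pairs with either IL12RB2 or the interleukin 23 receptor, was 0.0016 in the shared cow, 0.24 and −0.10 in high-Ab cows 2 and 3, and −0.02, −0.10 and 0.16 in the low-Ab cows. Its groups overlapped, with a difference of 0.04 ± 0.13, and in the DTH comparison the difference was −0.01 ± 0.08. IL12RB2, the signalling chain that activated T cells and natural killer cells carry, was 0.20 in the shared cow and 0.18 and 0.21 in high-Ab cows 2 and 3. It was −0.02, 0.05 and 0.07 in the low-Ab cows. All 3 high cows were above all 3 low cows, with means of 0.20 ± 0.01 and 0.03 ± 0.05 (SD, n = 3 cows each), and this also held with the 3 arrays turned. The SD of IL12RB2 between arrays of a cow was 0.11, so the close values of the high cows do not show an equal level. The difference was 0.17 ± 0.08 with an interval from −0.03 to 0.36, and it was 0.13 ± 0.07 with the arrays turned.

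The separation of IL12RB2 did not pass any test. The two-sided exact permutation p of IL12RB2 was 0.1, the smallest that 3 against 3 cows can give, and the limma adjusted p over all features was 0.858, or 0.66 with the arrays turned. Groups without overlap were found in 1 of the 7 members, beside 15 of the 141 named genes (10.6%), or 21 (14.9%) with the arrays turned. Among the named genes IL12RB2 ranked 14 by p and 40 by size of the difference. Leaving out each cow in turn kept the difference between 0.14 and 0.18.

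In the DTH groups IL12RB2 did not separate. It was 0.04 and −0.05 in high-DTH cows 2 and 3, and −0.04, 0.06 and 0.15 in the low-DTH cows, so the shared cow was the highest of the high group. The difference was 0.0078 ± 0.11, and without the shared cow it was −0.06. In the DTH comparison 22 of 141 named genes (15.6%) had groups without overlap, and no member was among them. The test of the difference between the Ab and DTH effects gave 0.22 ± 0.13 for IL12RB2 (limma adjusted p = 0.671) and 0.24 ± 0.20 for IFNG (adjusted p = 0.845). It called 0 of 561 features (0%), with 58 at an unadjusted p under 0.05, and the array-level fit called 7.

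Most T-cell markers were, like IL12RB2, higher in the high-Ab than in the low-Ab cows. Of 7 markers measured (CD3D, CD3E, CD3G, CD247, CD4, CD5, CD28), 6 were higher in high-Ab cows, with a median difference of 0.41 (0.27 with the arrays turned) and none past the test. The mean of the list per cow ranged from 0.32 to 0.69 in the high and from −0.04 to 0.17 in the low cows. In the DTH comparison 7 of 7 were higher, with a median of 0.33 (0.21 turned), whereas IL12RB2 differed by only 0.0078 as deposited. CD247, the zeta chain of the T-cell receptor complex, differed by 0.59 ± 0.11 in the Ab comparison. Of the natural killer markers only FCGR3A and XCL1 were measured, and both were lower in high-Ab cows, with differences of −0.23 ± 0.55 and −0.16 ± 0.15. The part of T-cell content in the IL12RB2 difference was not tested.

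IFNG, the cytokine that T cells and natural killer cells release, was 0.03 in the shared cow, 0.36 and 0.14 in high-Ab cows 2 and 3, and −0.06, 0.14 and 0.14 in the low-Ab cows. The Ab groups overlapped, with a difference of 0.11 ± 0.12 and an interval from −0.19 to 0.40, and without high-Ab cow 2 the difference was 0.01. In high-DTH cows 2 and 3 IFNG was −0.05 and 0.01, and in the low-DTH cows 0.10, −0.19 and 0.23. The low-DTH cows spanned the high ones on both sides, and the difference was −0.05 ± 0.13.

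IFNGR1, the ligand-binding chain of the interferon gamma receptor, stayed within −0.18 and 0.16 in all 11 cows. It was −0.02 ± 0.11 in the 3 high and −0.08 ± 0.11 (SD, n = 3) in the 3 low cows of the Ab comparison, and 0.06 ± 0.11 and 0.07 ± 0.04 in the DTH comparison. Neither difference, 0.06 ± 0.11 and −0.01 ± 0.09, was larger than the spread between cows of a group.

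IRF1 was the member farthest from the standard. It was −0.09 in the shared cow, −0.61 and −0.57 in high-Ab cows 2 and 3, and 0.02, −0.48 and −0.83 in the low-Ab cows. In high-DTH cows 2 and 3 it was −0.35 and −0.11, and in the low-DTH cows −0.09, −0.08 and −0.19. Values were below 0 in 10 of 11 cows and on 38 of 44 arrays. No member had all 11 cows on 1 side of 0, which 2 of 141 named genes did (1.42%), or 10 with the arrays turned (7.09%). The mean of IRF1 was −0.31 ± 0.28 (SD, n = 11 cows). It was the only member called against the standard (limma adjusted p = 0.0152), where 130 of 561 features (23.2%) and 26 of 141 named genes were called. All cow values share the same standard, and its own spread is not in the error. Each p against the standard therefore weighs a mean only against the spread between cows. With the arrays turned the mean of IRF1 was −0.34 and the adjusted p 0.00795, with 169 features called (30.1%). The call did not hold on arrays 1 and 2 alone (−0.25, adjusted p = 0.0713) or on arrays 3 to 5 alone (−0.37, adjusted p = 0.0834), where only 46 and 21 features were called. Some markers of cell types also stood off the standard. T-cell markers were higher in 7 of 7, with a median of 0.29 and 4 called (0.32 and 6 turned), among them CD3D at 0.53 ± 0.10 and CD3E at 0.51 ± 0.08. The natural killer marker XCL1 was higher by 0.18 ± 0.05 (limma adjusted p = 0.0162) and the monocyte marker TLR4 was −0.11 ± 0.03 (adjusted p = 0.0316). The rest of these 2 lists was not called, with FCGR3A at 0.07 ± 0.16, CD14 at −0.08 ± 0.05 and FCGR1A at −0.02 ± 0.03. No marker of B cells, neutrophils or gamma delta T cells was called. The part of cell types in the IRF1 shift was not tested. The other 6 members lay between −0.0092 and 0.08 on average and did not pass, the nearest being IL12RB2 at 0.08 (adjusted p = 0.123), which passed in the limma fit on single arrays (0.07, adjusted p = 0.0328).

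High and low cows did not part in IRF1. The Ab difference was 0.01 ± 0.25 with an interval from −0.59 to 0.61, and 0.20 ± 0.17 with the arrays turned. The DTH difference was −0.06 ± 0.11, and −0.13 ± 0.10 turned. IRF1 in low-Ab cow 1 was 0.02 as deposited and −0.56 with arrays 1 and 2 turned. Its 4 arrays read 0.56, 0.58, −0.65 and −0.43, and the 2 arrays of unsettled sign were the highest of all 44 for IRF1.

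**Figure D2:**
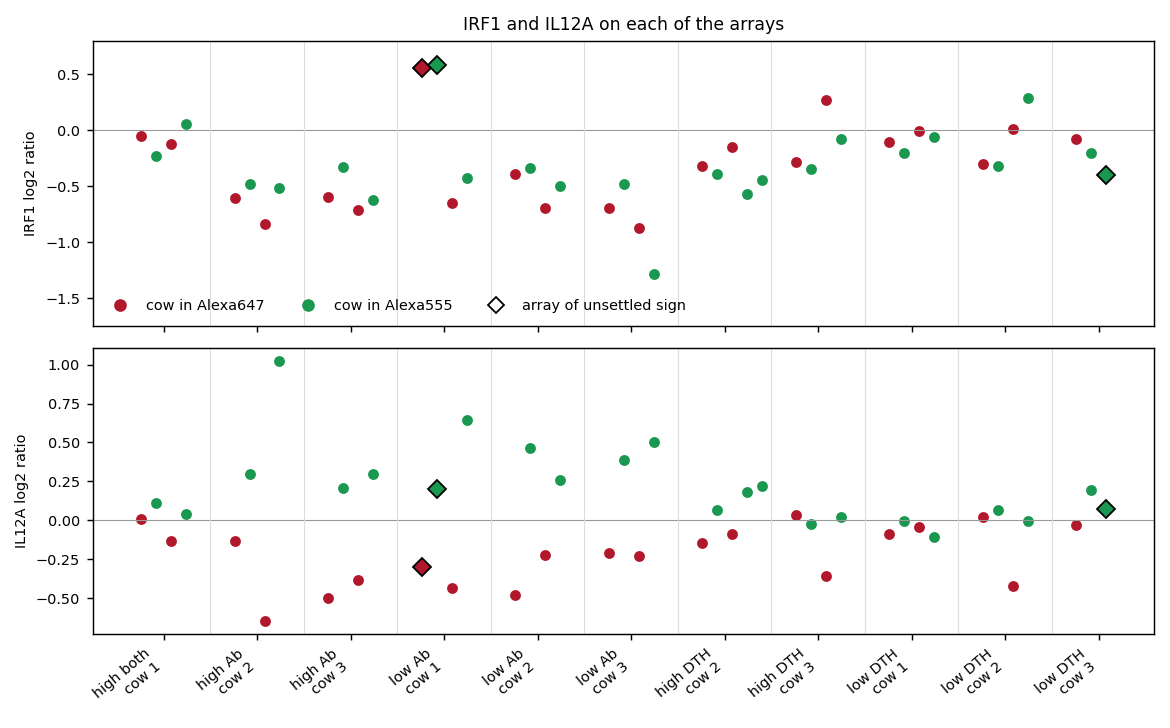
Log2 ratio of IRF1 (top) and IL12A (bottom) on each array (vertical axes), by cow (horizontal axis), coloured by the dye of the cow's RNA, with diamonds for the 3 arrays of unsettled sign. For IRF1 the diamonds of low-Ab cow 1, at 0.56 and 0.58, lie opposite to the other arrays of that cow, whereas for IL12A they lie on the same sides as the array of the same dye.

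IRF1 in the Ab and in the DTH cows depended on the sign of the 3 arrays. With the arrays turned, the 5 cows labelled for Ab alone lay between −0.83 and −0.48 and the 5 labelled for DTH alone between −0.35 and 0.01, while the shared cow was at −0.09. So the 2 sets did not overlap when turned, as in 7 of 141 named genes (4.96%), and this is a description chosen after the values had been seen, with no test. As deposited they overlapped through low-Ab cow 1 at 0.02, and 3 of 141 named genes had no overlap (2.13%). A comparison of low-Ab against low-DTH cows, added after the values had been seen, gave −0.31 ± 0.21 as deposited (limma adjusted p = 0.878) and −0.57 ± 0.11 turned (adjusted p = 0.102). It called 0 of 564 features (0%) both ways, with 45 and 116 at an unadjusted p under 0.05. Turned, the 2 groups did not overlap in IRF1, nor in 34 of 141 named genes (24.1%). In IRF1, array 3 of high-DTH cow 3 read 0.28 and array 4 of low-DTH cow 2 read 0.29, each above the other arrays of its cow. Both arrays agreed poorly with those of other cows and were not turned. No label used here says whether the Ab and DTH cows were processed apart.

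Differences between single cows passed a test against the spread between arrays of a cow in 2 members, a share near that of all named genes. An F-test over cows, with arrays of a cow as technical replicates, called IFNG (F = 3.25, adjusted p = 0.021) and IRF1 (F = 3.93, adjusted p = 0.00718) among 179 of 561 features (31.9%). That is 2 of 7 members, beside 47 of 141 named genes (33.3%). IL12RB2 was not called by this F-test (F = 2.05, adjusted p = 0.132). For IFNG and IRF1 the SD between cow values was 0.15 and 0.28, and between arrays of a cow also 0.15 and 0.28. With the arrays turned both were called again, among 235 features (41.9%) and 56 named genes (39.7%). IFNG was highest in high-Ab cow 2, on arrays 0.41, 0.03, 0.62 and 0.39, and lowest in low-DTH cow 2, on arrays −0.06, 0.01, −0.38 and −0.32. Without high-Ab cow 2 the adjusted p of IFNG was 0.103 and without low-DTH cow 2 it was 0.0759. IRF1 missed the threshold after quantile normalisation (adjusted p = 0.0545). The test concerns single cows and not the traits, and since no label used here gives more than 1 RNA sample per cow, the animal and the handling of its sample cannot be told apart.

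All 5 high against all 6 low cows gave no member call. Differences ranged from −0.07 for IRF1 to 0.09 ± 0.08 for IL12B, and IL12RB2 was 0.07 ± 0.07 higher, at 0.12 ± 0.12 (SD, n = 5) against 0.04 ± 0.07 (SD, n = 6). The exact permutation p values of the 7 members lay between 0.208 and 0.816, where 0.00216 was the smallest the design allows. No member had groups without overlap, beside 2 of 141 named genes (1.42%). Limma called 0 of 561 features (0%), 20 were at an unadjusted p under 0.05, and the array-level fit called 9.

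**Figure D3:**
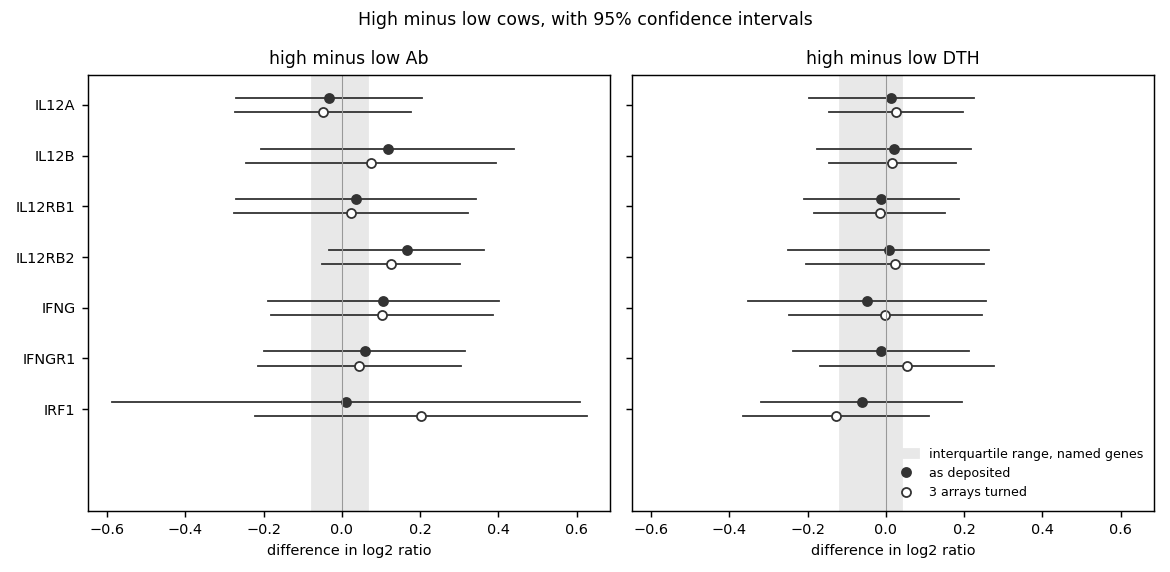
High minus low difference in log2 ratio (horizontal axis) for each member (vertical axis) in the Ab (left) and DTH (right) comparison, with limma 95% confidence intervals, as deposited (filled) and with the 3 arrays turned (open). Grey bands are the interquartile range of the 141 named genes. All intervals cross 0, and IL12RB2 in the Ab comparison comes nearest to leaving it out, at −0.03 to 0.36.

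IL12A, IL12B and IL12RB1 varied more between the arrays of a cow than between cows, and followed the dye. The SD between arrays of a cow was 0.35 for IL12A and 0.34 for IL12B, against 0.08 and 0.12 between the cow values. A larger spread between arrays was also seen in IFNGR1, at 0.29 against 0.11, and slightly in IL12RB2, at 0.111 against 0.095. Cow values are means of several arrays, which lowers their SD by itself. For IL12A, IL12B and IL12RB1 the ratio was lower with the cow's RNA in Alexa647 than in Alexa555 in 11 of 11 cows. The mean gap was −0.44 ± 0.10 for IL12A, −0.41 ± 0.09 for IL12B and −0.33 ± 0.07 for IL12RB1 (limma adjusted p = 0.0142, 0.0142 and 0.0121), and 68 of 561 features were called (12.1%), or 35 of the 141 named genes (24.8%), 21 of them (14.9%) lower in Alexa647. The 3 members were called with the arrays turned too, among 38 features (6.77%), 15 named genes (10.6%) and 8 that were lower (5.67%). Turning reverses the dye gap of the turned arrays, so fewer calls in that setting do not speak to the gap. This comparison was added after the values had been seen. Each cow has arrays of both dyes and the orientations were weighted equally. A dye effect of equal size on all arrays of a cow therefore cancels in the cow values above, but an unequal one does not cancel fully. In high-Ab cow 2, IL12A read −0.13 and −0.65 in Alexa647 and 0.30 and 1.02 in Alexa555, so the size was not equal there.

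The gap differed between the Ab and the DTH cows. In IL12A it was −1.05, −0.70, −0.79, −0.71 and −0.66 in the 5 cows labelled for Ab alone (high-Ab cows 2 and 3, low-Ab cows 1 to 3). It was −0.27, −0.16, −0.0074, −0.23 and −0.17 in the 5 cows labelled for DTH alone, and −0.14 in the shared cow. In IL12B the Ab cows lay between −0.78 and −0.65, the DTH cows between −0.35 and −0.02, and the shared cow at −0.10. In IL12RB1 the Ab and DTH cows overlapped, with low-DTH cow 2 at −0.359 and low-Ab cow 2 at −0.353. The shared cow, although high for Ab, had gaps in the range of the DTH cows in IL12A, IL12B and IL12RB1.

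**Figure D4:**
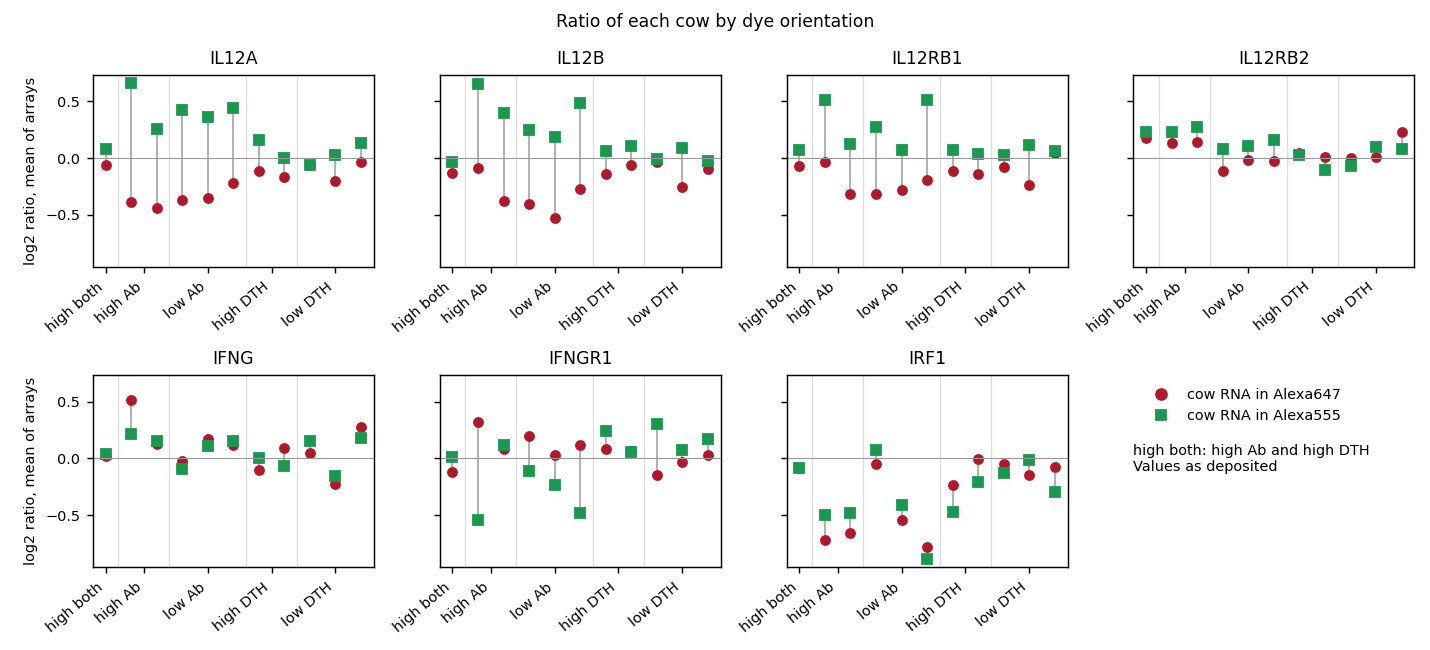
Mean log2 ratio (vertical axis) of each member in each cow (horizontal axis, 11 cows by label group) over arrays with the cow's RNA in Alexa647 (circles) and in Alexa555 (squares), as deposited. The distance between circle and square is on average largest in the high-Ab and low-Ab cows for IL12A, IL12B and IL12RB1, with means of −0.78, −0.73 and −0.53, against about −0.17, −0.16 and −0.17 in the cows labelled for DTH alone. For IL12RB1 the single cows overlap.

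The gap of Ab minus DTH cows was −0.61 for IL12A (95% interval −0.84 to −0.39, limma adjusted p = 0.00711) and −0.57 for IL12B (−0.77 to −0.37, adjusted p = 0.00655), among 20 of 561 features called (3.57%). Of the 141 named genes 10 were called, 9 of them with a difference below 0. With the 3 arrays turned the differences of IL12A and IL12B were −0.53 and −0.45 and no longer called (adjusted p = 0.115 and 0.173, 0 of 561 features). Turning an array reverses its dye gap along with its ratio, which narrows the gap of low-Ab cow 1 by construction. The lost call therefore cannot show how firm the difference is. The difference was also not called on arrays 3 to 5 alone, at −0.67 and −0.66 (adjusted p = 0.446 for both). The gap was wider in Ab than in DTH cows in 105 of 141 named genes, with a median absolute gap of 0.22 against 0.09, so it is not particular to the members. By the two-sided exact permutation test alone, 6 of 7 members and 55 of 141 named genes (39%) were under 0.05. IL12A and IL12B ranked 3 and 4 of 141 by absolute gap in the Ab cows. In IFNGR1 the gap ran the other way, at 0.40 ± 0.34 in the Ab and −0.17 ± 0.17 in the DTH cows (SD, n = 5 each).

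Both ligand chains changed side of the standard with the dye orientation. With the cow in Alexa647, IL12A was −0.22 (limma adjusted p = 0.00625), IL12B −0.22 (0.00908) and IL12RB1 −0.16 (0.0151). With the cow in Alexa555 they were 0.23 (0.0395), 0.20 (0.0642) and 0.17 (0.0602). IRF1 was −0.30 in Alexa647 and −0.31 in Alexa555 and passed in both (0.0194 and 0.0203).

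Other genes of the pathway were few on this array. Of 15 further partners of the axis, from kinases and STAT factors to cofactor cytokines, only IL18 and IL15 were measured. IL18, which acts with interleukin 12 to raise interferon gamma, was 0.31 ± 0.12 higher in high-Ab and 0.32 ± 0.15 higher in high-DTH cows (limma adjusted p = 0.654 and 0.576). IL15, which sustains natural killer and memory T cells, differed by 0.07 ± 0.16 and −0.31 ± 0.16. Neither passed.

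Genes of the interferon gamma response and of antigen processing were measured for 10 of 19 on the list, and 0 passed in either comparison. In the Ab comparison 6 were higher and 4 lower, with a median of 0.02 against −0.0089 over all genes. In the DTH comparison 1 was higher and 9 lower, with a median of −0.26 against −0.03. The immunoproteasome subunits PSMB9 and PSMB10 differed there by −0.38 ± 0.15 and −0.36 ± 0.13, the costimulatory receptor CD40 by −0.30 ± 0.12, and B2M, the light chain of class I molecules, by 0.38 ± 0.13. IFNG and IRF1 differed by −0.05 and −0.06 in the same cows.

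Cytokines and factors of type 2 and regulatory responses were measured for 10 of 12 on the list, and 0 passed. They split into 3 higher and 7 lower in the Ab comparison (median −0.04) and 6 higher and 4 lower in the DTH comparison (median 0.02). The widest were CCR3 and CCR4, chemokine receptors of eosinophils and of type 2 T cells, at 0.65 ± 0.20 and 0.38 ± 0.11 in the DTH comparison. Of 8 cytotoxic effectors only FASLG, the ligand that triggers death through FAS, was measured, at 0.07 ± 0.10 and −0.08 ± 0.11.

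Markers of B cells (4 measured), monocytes (3), neutrophils (2) and gamma delta T cells (1) had no call in either comparison. The monocyte markers CD14, FCGR1A and TLR4, of the cells that make interleukin 12, differed by at most 0.08 in the Ab comparison in absolute value. In the DTH comparison they differed by 0.09, −0.05 and 0.15. Larger Ab differences were seen in the neutrophil marker LTF, at −1.04 ± 0.54, and the gamma delta T-cell marker CD163L1, at 0.76 ± 0.35. The other neutrophil marker, CXCR2, differed by −0.02 ± 0.10. The B-cell markers were lower in 4 of 4 in the DTH comparison, with a median of −0.28. Markers of platelets and red cells were not measured.

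Across the 11 cows, IL12A, IL12B and IL12RB1 went together, with r = 0.86 for IL12A with IL12RB1, 0.82 for IL12B with IL12RB1 and 0.52 for IL12A with IL12B. The genes most like each member by Pearson's r were IL3 (0.89) and IL4 (0.86) for IL12A, TGFB1 (0.86) and IL12RB1 (0.82) for IL12B, and IL3 (0.92) and TGFB1 (0.89) for IL12RB1. For IL12RB2 they were LOC617313 (0.80) and CD247 (0.73), and for IFNG they were FASLG (0.82) and BCL2 (0.78). For IFNGR1 they were NFKB1 and PRL, both at 0.63, which fell to 0.51 and 0.47 with the arrays turned. In that setting SIRPA (0.71) and CCR1 (0.65) were most like IFNGR1. The most similar gene also changed to IGFBP3 (0.84) for IL12B and to ALCAM (0.83) for IFNG. IRF1 went with TAP2 (0.86), a peptide transporter of class I presentation, and CCR1 (0.77), the last falling to 0.36 with the arrays turned. These r are over 11 cow values that share 1 standard, and IL3 and TGFB1 also had wide dye gaps in the Ab cows, at −0.81 and −0.63. IFNG and IRF1 had r = −0.59.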

How the data were processed

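Total RNA of each cow was amplified in 1 round, labelled with Alexa647 or Alexa555 and hybridised with the standard, per the labels' protocols. The deposited table holds the authors' log ratios, taken as log2. Which log base, direction, scanner, background correction or normalization applied is not given in the sources used here. No dim spots could be removed. The 8 spots of a gene were averaged, then arrays within dye orientation, then orientations, giving 1 value per cow. Limma 3.58.1 in R 4.3.3 was fitted on all features (named genes, and unnamed spots singly) with Benjamini-Hochberg adjustment at 0.05, after testing on simulated data. The simulated differences were larger than those of the members, so the power at the sizes given here was not tested. A bacterial control, vapA, was set aside (mean 0.03 ± 0.09, SD, n = 11 cows). Cows are the replicates and arrays are technical.

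The 7 members were described in every cow, lists by counts with at most 4 genes of largest difference named, and 2 genes of highest r per member. The members and lists were chosen with earlier results of these data known. The dye comparisons and low-Ab against low-DTH were added after seeing the data. Of the 7 members, 6 matched the bovine reference table by identifier and IRF1 by symbol. Alternatives were the 3 arrays turned or left out, array subsets, quantile normalisation, 1 dye, the median of spots, arrays as units and each cow left out.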

Additional observations from a re-analysis of the deposited data

Results flagged for a closer look

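IL12B in high-Ab cow 2 was 0.28, which lay far from the other 4 of the 5 high cows. Its gap to the nearest of them was 0.711 of the group's whole range, just over the limit of 0.71 for 5 samples. A limit of this kind marks about 1 in 20 groups by chance, and 2 groups of 4 or more cows were looked at for each member.

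The gap between the dye orientations differed between the 5 cows labelled for Ab alone and the 5 labelled for DTH alone in 6 of 7 members by an exact permutation test, as it did in 55 of 141 named genes. By limma 126 of 561 features were at an unadjusted p under 0.05. The difference was −0.61 for IL12A, −0.57 for IL12B, −0.36 for IL12RB1, −0.20 for IL12RB2, −0.23 for IRF1 and 0.57 for IFNGR1. The two-sided exact permutation p was 0.00794, the smallest possible, for IL12A, IL12B and IL12RB2, 0.0159 for IL12RB1 and IFNGR1, and 0.0476 for IRF1. By limma with adjustment over all features only IL12A and IL12B of the members passed, beside 10 of 141 named genes. No member passed with the 3 arrays turned, a setting that reverses the dye gap of those arrays by construction.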

How the results depend on the processing

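Over the alternatives, no member crossed the threshold in either trait comparison, and IL12RB2, IL12B and IFNG kept their sign in the Ab comparison. Members close to 0 changed sign. In the Ab comparison, changed signs were −0.074 for IFNGR1 and −0.26 for IRF1 on arrays 1 and 2 alone, −0.019 for IL12RB1 on arrays 3 to 5 alone, and −0.021 for IFNGR1, 0.015 for IL12A and −0.030 for IRF1 in Alexa647 alone. Others there were −0.050 for IL12RB1 in Alexa555 alone, and −0.015 for IRF1 by the median of spots. In the DTH comparison, changed signs were 0.054 for IFNGR1 with the 3 arrays turned, 0.025 for IFNGR1 with them left out, and −0.018 for IL12A, −0.049 for IL12B and −0.043 for IL12RB2 on arrays 1 and 2 alone. Others there were 0.023 for IFNG, 0.012 for IL12RB1 and 0.0062 for IRF1 on arrays 3 to 5 alone, 0.0085 for IL12RB1 after quantile normalisation, and 0.056 for IFNGR1 and −0.014 for IL12A in Alexa647 alone. Others there were −0.019 for IL12RB2 by the median of spots, and 5.0e-04 for IL12RB1 with arrays as units. In the comparison with the standard, changed signs were −0.0029 for IFNGR1 and 0.0035 for IL12B with the 3 arrays turned, −0.051 for IFNGR1 and −0.0073 for IL12RB1 on arrays 1 and 2 alone, and 0.0098 for IL12B on arrays 3 to 5 alone. Others there were −0.0095 for IL12RB1 after quantile normalisation, −0.22 for IL12A and −0.16 for IL12RB1 in Alexa647 alone, and −0.036 for IFNGR1 and 0.20 for IL12B in Alexa555 alone. Others there were −0.0024 for IL12A and −3.7e-04 for IL12RB1 with arrays as units. The difference of IRF1 between low-Ab and low-DTH cows was 0.075 on arrays 1 and 2 alone. In the Ab comparison the range without each cow in turn was −0.0031 to 0.12 for IFNGR1, −0.092 to 0.023 for IL12A, −0.060 to 0.11 for IL12RB1 and −0.19 to 0.23 for IRF1. In the DTH comparison the range without each cow in turn was −0.16 to 0.042 for IFNG, −0.065 to 0.043 for IFNGR1, −0.013 to 0.055 for IL12A, −0.0061 to 0.047 for IL12B, −0.036 to 0.020 for IL12RB1, −0.062 to 0.065 for IL12RB2 and −0.11 to 0.023 for IRF1. In the comparison with the standard the range without each cow in turn was −0.0038 to 0.030 for IFNGR1, −0.0097 to 0.013 for IL12A, −0.038 to 0.0066 for IL12B and −0.017 to 0.017 for IL12RB1. The cause was not tested.

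Arrays as units with the cow as random block raised the count of features called from 0 to 16 in the Ab, 2 in the DTH, 7 in the difference between traits and 9 in all high against all low cows. Against the standard 130 features became 46 on arrays 1 and 2 and 21 on arrays 3 to 5. The dye gap went from 68 features to 38 turned, 123 with the arrays left out, 15 on arrays 3 to 5 and 117 after quantile normalisation. IL12A, IL12B and IL12RB1 were called for the dye gap in all of these and without each cow in turn. The Ab minus DTH gap went from 20 to 0 turned, 50 left out, 86 on arrays 1 and 2, 0 on arrays 3 to 5 and 66 after quantile normalisation. Turning reverses the dye gap of the turned arrays, so the turned counts do not show how firm either gap is. Leaving out each cow in turn gave 0 to 1 features in the Ab, 0 in the DTH and 0 to 3 in the trait difference, 93 to 135 against the standard, 110 to 217 among cows, 26 to 129 for the dye gap and 7 to 51 for the Ab minus DTH gap. The replicate block on cow number left 0 features called in the Ab and DTH comparisons, with IL12RB2 at 0.17 in the Ab comparison (limma adjusted p = 0.999). The correlation of deviations of same-numbered cows lay between −0.51 and −0.13. Whether same-numbered cows were handled together was not tested.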
